A study of Homo sapiens with 12 samples.

Results

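Tight junctions seal the space between neighbouring epithelial cells. Their strands are built by claudins, small membrane proteins with a pair of extracellular loops that meet those of the next cell, and different claudins make the seal tighter or more permeable. Occludin and the junctional adhesion molecules share the membrane with them, ZO scaffold proteins tie them to actin, and Crumbs proteins mark the apical side above the junction. Here 9 genes of this structure were followed in PC3 cells: the claudins *CLDN1*, *CLDN3*, *CLDN4*, *CLDN7* and *CLDN12*, occludin (*OCLN*), ZO-1 (*TJP1*), the junctional adhesion molecule A (*F11R*) and Crumbs 3 (*CRB3*). They are defined by gene symbol and not by a threshold on any measured value, and all 9 were found by Ensembl ID among the 60676 rows of the count table. All 9 also passed the minimum of 10 counts in total, which left 20364 genes to be tested.

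PC3 is an established human prostate cancer line from a bone metastasis. RNA was sequenced from PC3 cells and from PC3SFRP2 cells, which overexpress *SFRP2*, the gene of a secreted WNT-binding protein, after 5 days on uncoated plastic (CCP) or on a coat of collagen type I (COL1). The 4 groups CCP-PC3, CCP-PC3SFRP2, COL1-PC3 and COL1-PC3SFRP2 had 3 libraries each, called biological replicates by the labels. The control PC3 cells carried the same Sleeping Beauty plasmid, with red fluorescent protein and puromycin resistance, but no *SFRP2* insert, and both lines were selected with puromycin and sorted for fluorescence. Because no independently made lines are named, the difference between PC3SFRP2 and PC3 compares 1 line with another, and the p-values cover the spread among these libraries alone, which may be technical if they did not come from separate cultures.

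The libraries held 5529459 to 9975972 counts in genes. *SFRP2* was at 10.7 to 27.0 CPM (counts relative to the size of the library, on the TMM scale) in the 6 libraries of PC3 and at 10421 to 31131 CPM in the 6 libraries of PC3SFRP2. The epithelial genes *KRT8*, *KRT18*, *KRT19* and *EPCAM* were abundant in every group, while the prostate gene *KLK3* had 1 count and the basal keratin genes *KRT5* and *KRT14* 1 and 4 counts over all 12 libraries. Of 6 fibroblast markers 4 had at least 10 counts, with 803 of *COL1A1*, 1 of *COL1A2* and 5 of *DCN*, and the list summed to 7.34 to 16.7 CPM per library. Of 3 endothelial markers 2 did, with 1052 counts of *PECAM1* and 5 of *CDH5* and a sum of 7.19 to 17.4 CPM, and of 3 leukocyte markers 1 did, *PTPRC* with 16 counts, and the sum was at most 0.612 CPM. The 3 libraries of COL1-PC3SFRP2 stood apart. Mitochondrial genes took 7.17 to 16.8% of their counts against 19.8 to 24.0% in the other 9. For each library, a gene's log2 level was also compared with its mean over the other groups, COL1-PC3SFRP2 never being among these. Across genes this deviation correlated with GC content at a Spearman rho of 0.782 to 0.875 in COL1-PC3SFRP2, against -0.612 to 0.652 in the other 9. The third library of COL1-PC3SFRP2 stood apart further. In a deposited table of all libraries the counts used here for it stand as number 4 of the group. Number 3 there holds other counts, which differ in 22431 rows. Which of them is the sample labelled as the third replicate was not settled. The comparisons with this group are therefore also given with the third library left out, with these other counts in its place (the substituted library) and after counts were adjusted, library by library, for the GC content and length of genes (the GC correction).

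Per kilobase of transcript, *CLDN7* was the most abundant of the 9 genes in all 4 groups, followed by *CLDN4*. In CCP-PC3 the mean levels were 73.1 CPM per kb for *CLDN7*, 53.4 for *CLDN4*, 32.4 for *TJP1*, 15.3 for *F11R*, 13.8 for *CLDN1*, 10.8 for *CLDN12*, 8.08 for *CLDN3*, 5.32 for *CRB3* and 3.64 for *OCLN*, and the libraries of each gene lay above those of the next. In CCP-PC3SFRP2 *CLDN1* moved from the fifth to the seventh place, where its libraries overlapped with those of *CLDN3*. In COL1-PC3SFRP2 *CLDN3* took the third place at 43.7 CPM per kb, but each of the first 4 genes in that order overlapped with the next, and in the first and the second library *CLDN3*, at 21.1 and 20.2, was below *TJP1*, at 30.5 and 29.6. *OCLN* was the lowest in every group, at 1.94 CPM per kb in COL1-PC3SFRP2, and in CCP-PC3SFRP2 it overlapped with *CRB3*.

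On GRCh38, with the GENCODE v44 annotation, *CLDN3* (chr7:73768997-73770270, minus strand) and *CLDN4* (chr7:73799542-73832690, plus strand) are neighbours 29271 bases apart, and the canonical transcript of each is a single exon. *CLDN12* lies elsewhere on the chromosome (chr7:90383721-90513402, plus strand), *CLDN1* on chromosome 3 (chr3:190305707-190322446, minus strand) and *CLDN7* on chromosome 17 (chr17:7259903-7263983, minus strand). *OCLN* is at chr5:69492292-69558104 (plus strand), *TJP1* at chr15:29699367-29968915 (minus strand), *F11R* at chr1:160995211-161021343 (minus strand) and *CRB3* at chr19:6463777-6467221 (plus strand). The GC content of the canonical transcript was 69.2% for *CLDN3*, 62.1% for *CRB3*, 60.8% for *CLDN4* and 56.0% for *CLDN7*, and 37.7% for *CLDN12*, 38.8% for *OCLN*, 41.3% for *CLDN1*, 45.0% for *TJP1* and 46.7% for *F11R*. Some counts are uncertain because of near-identical or overlapping genes. Of the 50-base windows of *CLDN7*, 14.74% also occur in an overlapping gene on the same strand, which had 0 counts. *CLDN12* overlaps on the same strand with *GTPBP10*, which had 3428 counts against 3019 of *CLDN12*. Of the windows of *OCLN*, 9.61% also occur in other transcripts, mainly its pseudogene *OCLNP1*, and a second alignment of 11 of the libraries gave 12.3% more *OCLN* counts. Of those of *F11R*, 40.74% also occur in other transcripts, mostly an overlapping readthrough gene with 5 counts. *CRB3* overlaps on the opposite strand with *SLC25A23*, which had 8539 counts over all libraries against 779 of *CRB3*, and whether counting used strand is not stated.

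Promoter sequences from RefSeq (GRCh38.p14, 250 bases before to 50 after a gene start) were found for 8 of the 9 genes, with 13 windows in all. Those of 5 claudin or Crumbs genes that differed between groups below are shown, each in the direction of the gene. Capitals mark CAGGTG or its reverse complement CACCTG, the E-box that SNAI and ZEB repressors are known to bind.
CLDN1, chr3:190322397-190322696, minus strand: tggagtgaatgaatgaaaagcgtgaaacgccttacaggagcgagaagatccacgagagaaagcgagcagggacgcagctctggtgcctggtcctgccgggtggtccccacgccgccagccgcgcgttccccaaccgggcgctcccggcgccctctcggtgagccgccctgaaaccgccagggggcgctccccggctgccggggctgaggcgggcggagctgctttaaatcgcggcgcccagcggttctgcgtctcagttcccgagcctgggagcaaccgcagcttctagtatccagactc
CLDN3, chr7:73770221-73770520, minus strand: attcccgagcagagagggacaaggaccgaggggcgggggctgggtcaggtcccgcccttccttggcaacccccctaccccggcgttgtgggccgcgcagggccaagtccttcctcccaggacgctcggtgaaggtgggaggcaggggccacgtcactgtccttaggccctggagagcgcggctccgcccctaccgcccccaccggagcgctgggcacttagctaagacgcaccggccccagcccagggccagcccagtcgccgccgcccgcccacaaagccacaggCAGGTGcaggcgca
CLDN4, chr7:73830746-73831045, plus strand: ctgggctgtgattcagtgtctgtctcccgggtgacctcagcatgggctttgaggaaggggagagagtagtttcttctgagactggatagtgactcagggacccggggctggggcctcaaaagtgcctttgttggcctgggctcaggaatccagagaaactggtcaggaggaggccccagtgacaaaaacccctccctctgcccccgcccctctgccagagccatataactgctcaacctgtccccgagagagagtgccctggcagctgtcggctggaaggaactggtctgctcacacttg
CLDN7, second start, chr17:7262429-7262728, minus strand: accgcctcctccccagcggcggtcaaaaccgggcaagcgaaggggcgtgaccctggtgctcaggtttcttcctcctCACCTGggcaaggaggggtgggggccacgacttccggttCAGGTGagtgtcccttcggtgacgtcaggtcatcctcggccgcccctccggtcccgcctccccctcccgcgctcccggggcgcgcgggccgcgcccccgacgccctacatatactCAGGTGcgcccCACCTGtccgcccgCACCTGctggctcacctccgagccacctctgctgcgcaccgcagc
CRB3, chr19:6464021-6464320, plus strand: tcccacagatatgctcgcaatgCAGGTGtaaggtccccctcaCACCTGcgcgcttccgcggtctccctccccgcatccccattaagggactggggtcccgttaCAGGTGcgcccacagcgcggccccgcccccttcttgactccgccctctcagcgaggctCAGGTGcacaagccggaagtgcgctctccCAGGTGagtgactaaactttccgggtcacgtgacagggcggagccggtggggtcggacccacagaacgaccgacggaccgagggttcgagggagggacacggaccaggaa
Searched on both strands, this E-box was in 6 of the 13 windows and in 20.6% of the 35116 RefSeq promoter windows. *CLDN7* held 5 copies at its second start and 0 in the window of its first, which is not shown. *CRB3* held 5, the window of *CLDN3* held 1, and those of *CLDN1* and *CLDN4* held 0. Among windows not shown, the overlapping windows of *OCLN* held 1 and 2 copies, and 1 window of *TJP1* held 1. The remaining windows of *TJP1* and that of *CLDN12* held 0. The GRHL motif AACCGGTT, which is its own reverse complement, was in 0 of the 13 windows and in 0.134% of all windows. These matches describe letters in a window and not bound sites.

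*CLDN1*, which encodes a barrier-forming claudin, was the single gene of the 9 called on CCP, and it was lower in PC3SFRP2. Its levels were 48.5, 47.0 and 46.9 CPM in CCP-PC3 and 23.4, 23.3 and 18.9 CPM in CCP-PC3SFRP2. Every library of PC3SFRP2 was below every library of PC3, as was seen for 12.7% of all genes tested. *CLDN4* and *CRB3*, which were not called, also lay below without overlap. The log2 fold change of *CLDN1* came to -1.12 with a standard error of 0.17 (edgeR quasi-likelihood test, adjusted p = 0.00994 by the Benjamini-Hochberg method over all genes tested). Of the 20364 genes tested, 0.0638% were called lower and 0.0442% higher in this comparison, so few genes passed. The call held in 18 of 24 alternative analyses and was lost, at a log2 fold change of -1.13 to -1.02 and an adjusted p of 0.0743 to 0.175 from the same test, when any 1 of the 6 libraries compared was left out.

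**Figure D1:**
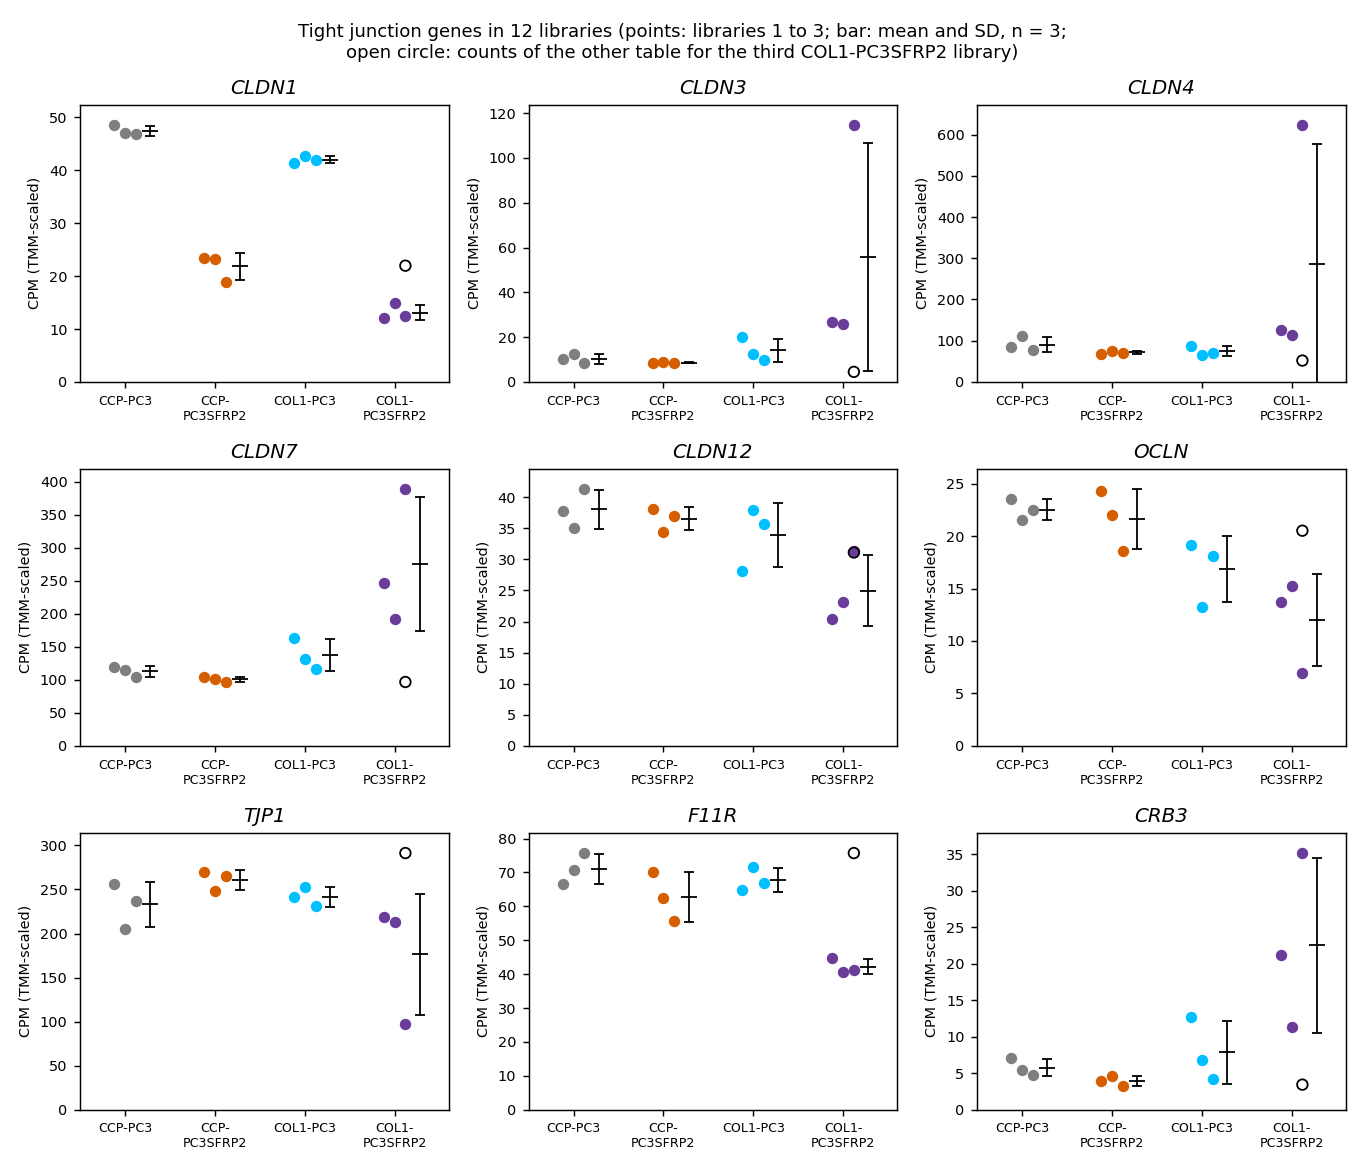
TMM-scaled CPM (vertical axes) of the 9 genes in the 12 libraries, by group. Filled points are libraries, the bar beside them is the mean with SD (n = 3), and the open circle is the substituted library of COL1-PC3SFRP2. *CLDN1* separates PC3SFRP2 from PC3 on both surfaces, while the third COL1-PC3SFRP2 library is far above all others for *CLDN3* (114.6 CPM) and *CLDN4* (622.7 CPM) and the open circle is not.

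The other 8 genes were not called on CCP, each at an adjusted p of 0.999 from edgeR's test. For *F11R* the 95% interval of the log2 fold change ran from -0.51 to 0.15, and for *CLDN12* from -0.46 to 0.35. The intervals of *CLDN3* (-1.30 to 0.81), *CLDN4* (-1.32 to 0.65) and *CRB3* (-1.50 to 0.38) were wide, and the size of a change in these genes was poorly determined. *TJP1*, which encodes the scaffold that links claudins to actin, was at 205.7 to 256.7 CPM in CCP-PC3 and 247.7 to 269.4 CPM in CCP-PC3SFRP2, with overlapping libraries. As a median, the 9 genes had a log2 fold change of -0.18, against -0.04 over all genes tested.

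Control PC3 cells showed no called change of the 9 genes between COL1 and CCP. edgeR called 0.0% of all genes higher and 0.0% lower in this comparison, with 945 genes at an unadjusted p under 0.05, and none of the 9 among them; DESeq2 called 6 genes in all. *CLDN1* was at 41.5, 42.6 and 42.0 CPM in COL1-PC3, slightly below all 3 libraries of CCP-PC3. The 95% interval of its log2 fold change was -0.52 to 0.17. *OCLN* also lay below without overlap, as did 7.19% of all genes tested. *OCLN* had the interval -0.94 to 0.10 and *CLDN3* the interval -0.61 to 1.47; the sizes of these changes were poorly determined. The intervals of *TJP1* (-0.44 to 0.55) and *F11R* (-0.40 to 0.27) were narrower.

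On COL1, 4 of the 9 genes were called higher in PC3SFRP2 than in PC3, 2 were called lower and 3 were not called, where 18.9% of all genes tested were called higher and 17.7% lower. *CLDN3*, *CLDN4*, *CLDN7* and *CRB3* rose, and *CLDN1* and *F11R* fell. The median log2 fold change of the 9 was -0.45, against 0.01 over all genes. Without overlap of libraries, 3 of the 9 lay above and 3 below, where 21.4% of all genes lay above and 22.3% below.

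*CLDN1* was at 12.2, 14.8 and 12.4 CPM in COL1-PC3SFRP2, against 41.5, 42.6 and 42.0 CPM in COL1-PC3. The groups were far apart and each varied little. The level was 3.19-fold lower, at a log2 fold change of -1.67 (standard error 0.18, edgeR adjusted p = 7.65e-05). This gene passed in all 24 alternatives, with log2 fold changes of -1.79 to -0.94 and the highest adjusted p at 0.0241. It was -0.94 after the GC correction (adjusted p = 0.00518 from edgeR's test) and -1.36 with the substituted library (adjusted p = 0.00255 from the same test), where the substituted library itself was at 22.0 CPM, above the rest of its group and below all libraries of PC3. The effect of *SFRP2* on *CLDN1* was not shown to differ between the surfaces: the interaction, the effect on COL1 minus that on CCP, was -0.56 with a 95% interval of -1.07 to -0.04 and an adjusted p of 0.129 from edgeR's test.

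*CLDN3* and *CLDN4*, the neighbouring genes on chromosome 7, encode claudins that are often abundant in carcinomas and are known as receptors of a bacterial enterotoxin. *CLDN3* was at 26.9, 25.7 and 114.6 CPM in COL1-PC3SFRP2 and at 19.9, 12.6 and 9.77 CPM in COL1-PC3. *CLDN4* was at 125.0, 113.0 and 622.7 CPM against 87.9, 65.9 and 69.8 CPM. The lowest libraries of COL1-PC3SFRP2 were above the highest of COL1-PC3 for both genes, and the third library was far above the other two. The log2 fold change was 1.99 for *CLDN3* (standard error 0.47, adjusted p = 0.00483 from edgeR's test) and 1.94 for *CLDN4* (standard error 0.48, edgeR adjusted p = 0.00593). Without the third library these fell to 0.96 and 0.69, still called (edgeR adjusted p = 0.00101 and 0.000691).

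*CLDN7*, which encodes a claudin found along the whole lateral membrane, was at 246.3, 192.3 and 388.9 CPM in COL1-PC3SFRP2 and at 163.8, 131.4 and 117.2 CPM in COL1-PC3. The libraries of the groups did not overlap. Its log2 fold change was 1.01 (standard error 0.22, adjusted p = 0.00343 from edgeR's test), and 0.69 without the third library (edgeR adjusted p = 0.000309). *CRB3*, the apical polarity gene, was at 21.2, 11.3 and 35.1 CPM against 12.6, 6.79 and 4.22 CPM. Here the second library of COL1-PC3SFRP2 was below the first of COL1-PC3, so the groups overlapped. The log2 fold change of *CRB3* was 1.55 (standard error 0.40, adjusted p = 0.00754 from edgeR's test), and it was not called when the third library of COL1-PC3 was left out. Without the third library of COL1-PC3SFRP2 it was 1.14 (edgeR adjusted p = 0.00439).

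None of these 4 increases was called with the substituted library or after the GC correction. In the substituted library, on the scale of its own fit, *CLDN3* had 4.50 CPM, *CRB3* 3.44 CPM, *CLDN4* 51.9 CPM and *CLDN7* 96.8 CPM, each below all 3 libraries of COL1-PC3. The log2 fold changes with it were 0.44 for *CLDN3*, 0.37 for *CLDN4*, 0.37 for *CLDN7* and 0.64 for *CRB3* (adjusted p = 0.41 to 0.592 from edgeR's test). After the GC correction they were 0.66, 0.77, 0.31 and 0.44 (adjusted p = 0.127 to 0.299 from the same test), where 0.485% of all genes were called higher with the substituted library and 5.54% after the correction. With both changes together they were -0.20, -0.15, -0.054 and -0.0033. The 4 genes that rose had GC contents of 56.0 to 69.2%, and the 5 others 37.7 to 46.7%. Across 9007 genes with a mean of at least 10 CPM, the fold change on COL1 correlated with GC content at a Spearman rho of 0.854. After the correction it was 0.128, a fall set by the method, which removes the relation to GC content in each library. Both values are a description over genes that are not independent.

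**Figure D2:**
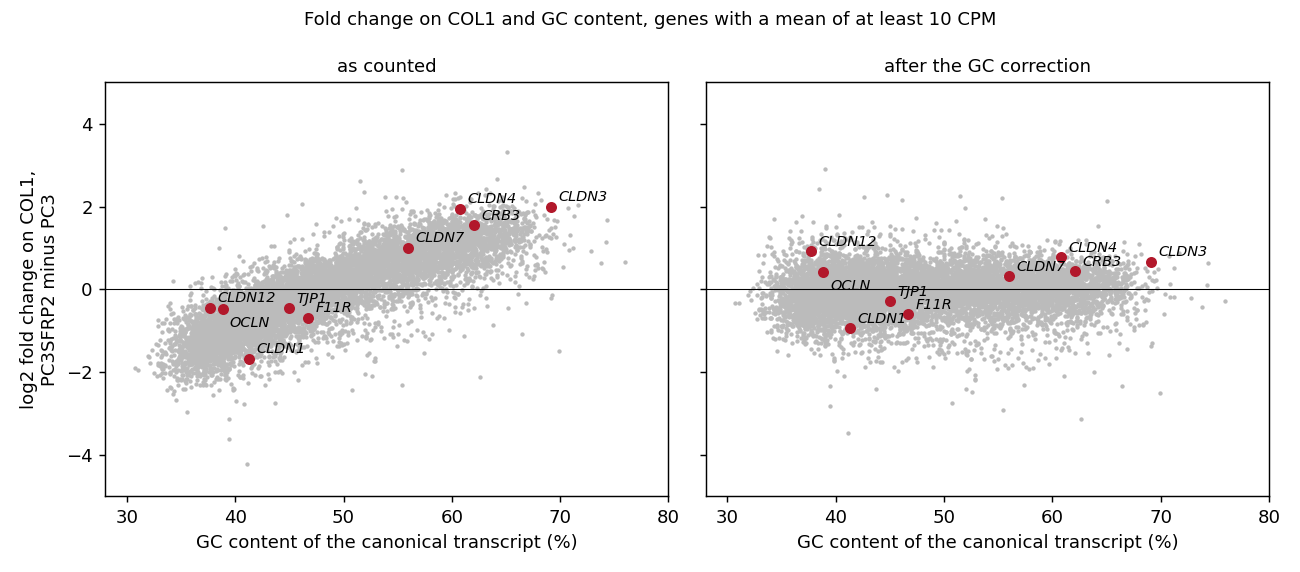
Log2 fold change on COL1, PC3SFRP2 minus PC3 (vertical axis), against the GC content of the canonical transcript in percent (horizontal axis) for genes with a mean of at least 10 CPM, as counted (left) and after the GC correction (right). Grey points are genes and red points the 9 genes named. On the left *CLDN3*, *CLDN4*, *CLDN7* and *CRB3*, with GC contents of 56.0 to 69.2%, lie in the upper right of the cloud, and on the right *CLDN1*, at -0.94, is the lowest of the 9.

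*F11R*, which encodes an adhesion molecule of the immunoglobulin family at the junction, fell on COL1 to 44.7, 40.7 and 41.1 CPM, from 64.9, 71.7 and 66.8 CPM in COL1-PC3. The groups did not overlap. The log2 fold change was -0.68 (standard error 0.16, adjusted p = 0.00457 from edgeR's test), and it was -0.66 without the third library and -0.60 after the GC correction, called in both. With the substituted library, at 75.7 CPM and so above all libraries of COL1-PC3, it was -0.34 and not called (adjusted p = 0.362 from the same test).

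*CLDN12*, *OCLN* and *TJP1* were not called on COL1. *CLDN12*, which encodes a claudin without the usual end that binds ZO proteins, was at 20.4, 23.1 and 31.3 CPM in COL1-PC3SFRP2 against 28.1, 37.9 and 35.6 CPM (log2 fold change -0.45, 95% interval -0.87 to -0.03, adjusted p = 0.0878 from edgeR's test). *OCLN* was at 13.7, 15.3 and 6.99 CPM against 19.1, 13.3 and 18.1 CPM (-0.47, interval -1.02 to 0.08). *TJP1* was at 219.2, 212.7 and 97.6 CPM against 241.3, 253.2 and 231.0 CPM (-0.45, interval -0.95 to 0.05). Without the third library of COL1-PC3SFRP2 *CLDN12* was called lower (-0.64, edgeR adjusted p = 0.00329), while *OCLN* moved to -0.20 and *TJP1* to -0.16. With the substituted library *CLDN12* was -0.45, *OCLN* -0.029 and *TJP1* -0.011, not called. After the GC correction *CLDN12* and *OCLN* turned upward, to 0.93 and 0.42, not called. For *OCLN* and *TJP1* the third library was the lowest of all 12, and the substituted library, at 20.5 and 291.4 CPM, was above every library of COL1-PC3.

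**Figure D3:**
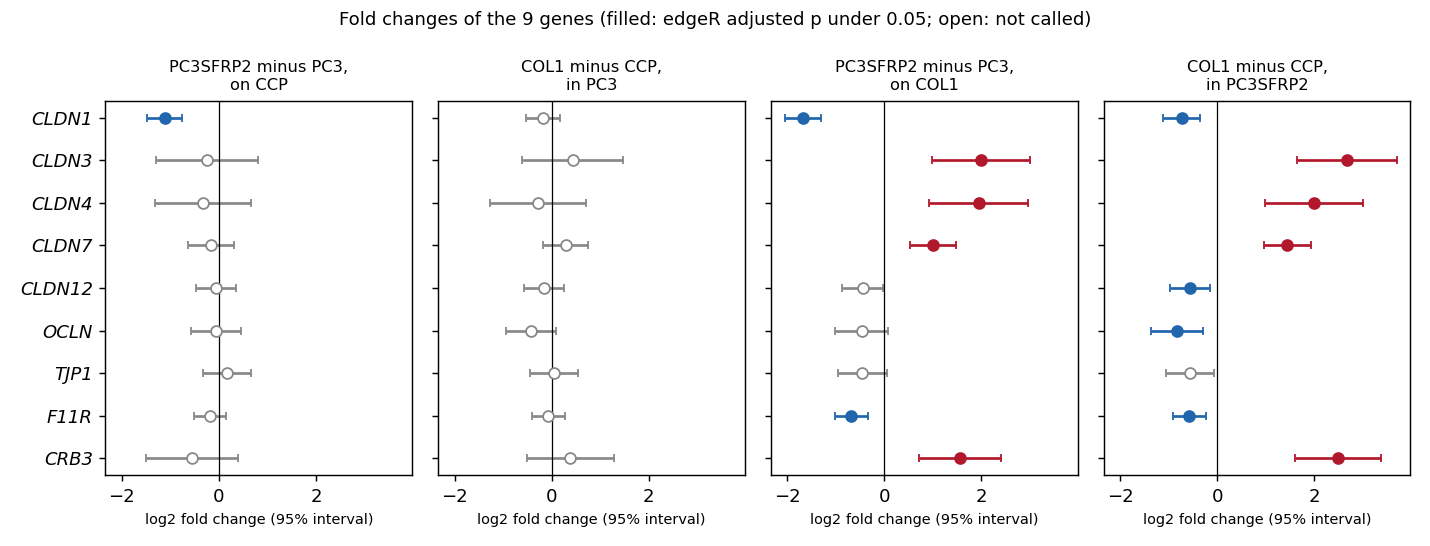
Log2 fold changes (horizontal axis) of the 9 genes in the 4 comparisons, from edgeR's fit of all 12 libraries, with 95% intervals. Red marks a called increase, blue a called decrease and open grey a gene not called at an adjusted p under 0.05. *CLDN1* is blue in 3 panels, no gene is called between COL1 and CCP in PC3, and the panels with COL1-PC3SFRP2 hold all red points.

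Within PC3SFRP2, 4 of the 9 genes were called higher on COL1 than on CCP, 4 lower and 1 was not called, where 20.8% of all genes were called higher and 18.4% lower. This comparison shares the libraries of COL1-PC3SFRP2 with the one above. *CLDN3* had 8.58, 8.87 and 8.57 CPM in CCP-PC3SFRP2, and its log2 fold change was 2.67 (standard error 0.48, adjusted p = 0.00104 from edgeR's test). *CRB3* had 3.95, 4.63 and 3.29 CPM there and a fold change of 2.49 (standard error 0.42, adjusted p = 0.000751). *CLDN4* at 1.995 and *CLDN7* at 1.45 also rose, and without the third COL1-PC3SFRP2 library the increases of *CLDN3*, *CLDN4*, *CLDN7* and *CRB3* were 1.60, 0.73, 1.12 and 2.04, all called. *CLDN1* fell by 0.73 on the log2 scale (adjusted p = 0.00485), *OCLN* by 0.83, *F11R* by 0.57 and *CLDN12* by 0.56, while *TJP1* at -0.56 was not called (adjusted p = 0.0699). The call of *CLDN12* was lost without the first or the third library of CCP-PC3SFRP2 or the first of COL1-PC3SFRP2, and that of *OCLN* without the first of CCP-PC3SFRP2. Without the third COL1-PC3SFRP2 library the 4 decreases were -0.69, -0.57, -0.55 and -0.75, all called, and *TJP1* was at -0.27. With the substituted library none of the 9 was called, where 0.049% of all genes were called higher and 0.0147% lower. The fold changes with it were 1.11 for *CLDN3*, 1.57 for *CRB3*, 0.42 for *CLDN4* and 0.82 for *CLDN7*, and -0.42 for *CLDN1*, -0.39 for *OCLN*, -0.23 for *F11R* and -0.56 for *CLDN12*. The GC correction turned *CLDN1* to 0.15, *OCLN* to 0.31 and *CLDN12* to 0.98 and left *F11R* at -0.33, none of them called. After it *CLDN3* (1.07), *CLDN7* (0.67) and *CRB3* (1.20) were called (adjusted p = 0.021, 0.00649 and 0.00976 from edgeR's test). Corrected with the third COL1-PC3SFRP2 library left out, *CLDN7* (0.46), *CRB3* (0.99) and *F11R* (-0.43) were called. *CLDN3* was not called in that fit (0.45, edgeR adjusted p = 0.0809). Corrected with the substituted library, none of the 9 was called.

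The effect of *SFRP2* differed between the surfaces in 3 of the 9 genes, all toward a higher level on COL1, where 5.01% of all genes were called in this direction and 3.66% in the other. The interaction was 2.28 for *CLDN4* (standard error 0.66, adjusted p = 0.0472 from edgeR's test), 1.16 for *CLDN7* (0.31, adjusted p = 0.0414) and 2.11 for *CRB3* (0.59, adjusted p = 0.045). *CLDN3* had an interaction of 2.24 with an adjusted p of 0.0521 from the same test. Without the third COL1-PC3SFRP2 library the interactions of *CLDN3*, *CLDN4*, *CLDN7* and *CRB3* were 1.20, 1.02, 0.84 and 1.71, all called. None was called with the substituted library or after the GC correction, and each of the 3 calls was lost in 9 of the 12 fits that left out a single library, among them all those without a library of the CCP groups. The number of all genes with a called interaction moved too: it was 1766 with all libraries, 3 without the third of CCP-PC3SFRP2 or the second of COL1-PC3, 5649 without the second of COL1-PC3SFRP2 and 0 with the substituted library, so the percentages above rest on single libraries.

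**Figure D4:**
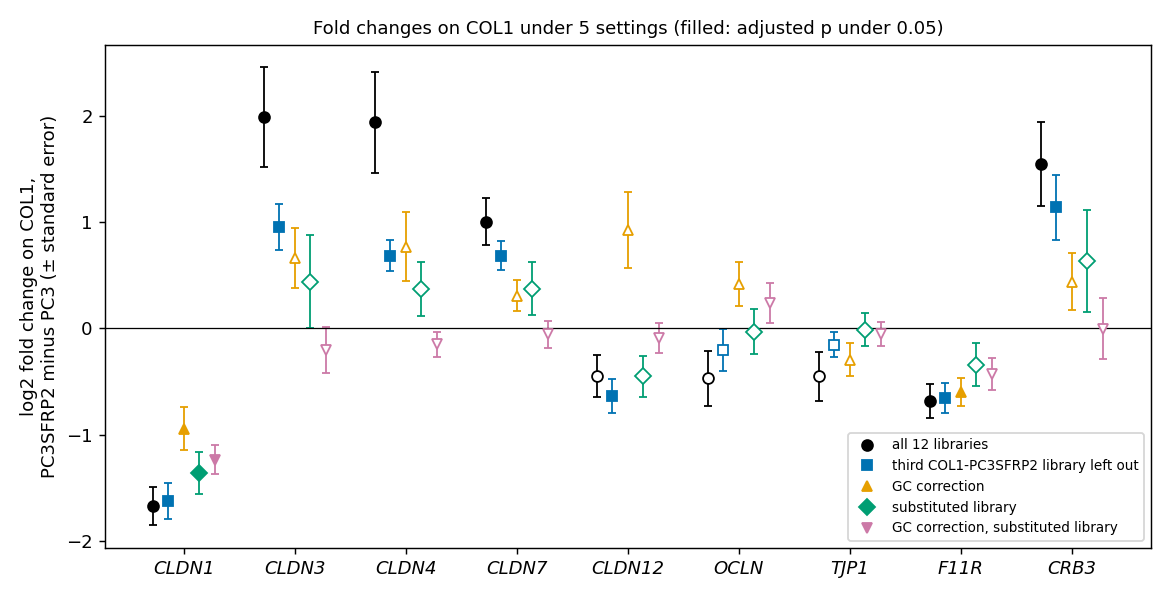
Log2 fold change on COL1, PC3SFRP2 minus PC3 (vertical axis, with standard error), of the 9 genes under 5 settings, shown by symbol and colour. Filled symbols have an adjusted p under 0.05. *CLDN1* is filled under all 5 settings, between -1.67 and -0.94, and *CLDN3*, *CLDN4*, *CLDN7* and *CRB3* are filled with all 12 libraries and without the third COL1-PC3SFRP2 library.

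The make-up of the 5 claudins was set by *CLDN7* and *CLDN4*. Per kilobase, *CLDN7* held a mean of 46.0% of their summed level in CCP-PC3, 49.8% in CCP-PC3SFRP2, 53.6% in COL1-PC3 and 50.5% in COL1-PC3SFRP2. *CLDN4* held 33.4%, 32.3%, 26.5% and 36.3%. The share of *CLDN1* was 8.70% ± 0.75 (SD, n = 3) in CCP-PC3 and 4.82% ± 0.46 in CCP-PC3SFRP2, and 7.45% ± 1.09 and 1.26% ± 0.72 on COL1, so that it was lower in every library of PC3SFRP2 than in any of PC3. All these shares are from levels without the GC correction. Their sum includes *CLDN3*, *CLDN4* and *CLDN7*, whose increases over PC3 on COL1 were not called after that correction. In the third library of COL1-PC3SFRP2 *CLDN4* exceeded *CLDN7*, at 50.9% against 34.9%, which no other library showed. In the first and the second library of the group *CLDN7* held 60.5% and 56.1%, *CLDN4* 27.9% and 30.0% and *CLDN1* 1.34% and 1.94%. The substituted library had 56.0%, 27.3% and 5.69% of these, so that *CLDN1* was below every library of PC3 there too.

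**Figure D5:**
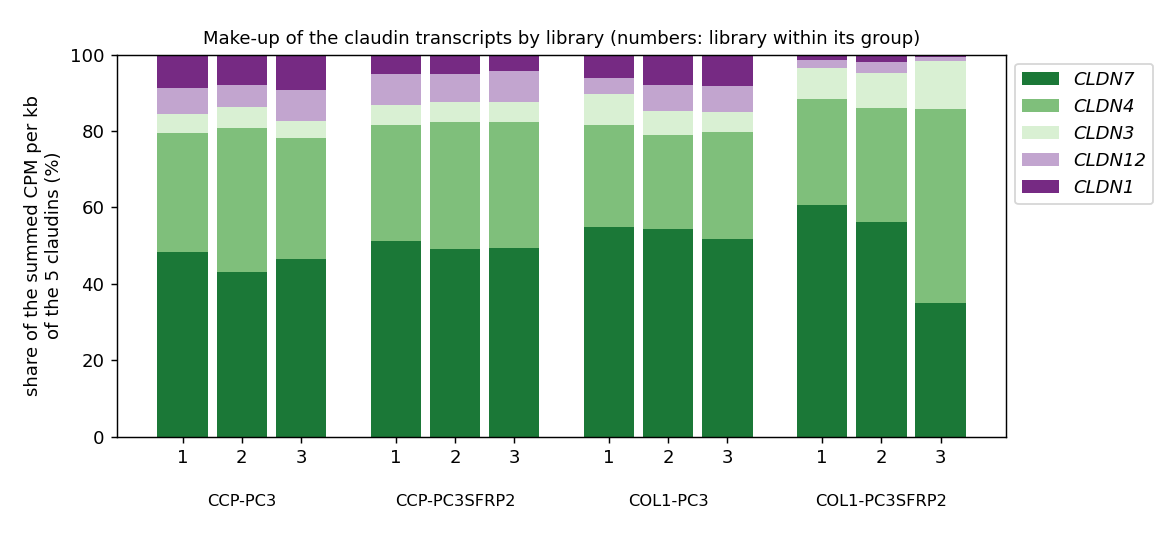
Share of each claudin in the summed CPM per kb of the 5 claudins (vertical axis, percent) in each of the 12 libraries, grouped by cell line and surface. Levels are without the GC correction. *CLDN1*, at the top of each bar, takes 6.21 to 9.37% in the 6 libraries of PC3 and 0.498 to 5.12% in the 6 of PC3SFRP2.

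Over the 12 libraries, which share the contrast of COL1-PC3SFRP2 with the rest, the levels, as log2 of CPM plus 0.5, of *CLDN3* and *CLDN7* correlated at a Pearson r of 0.976, those of *CLDN7* and *CRB3* at 0.976 and those of *CLDN1* and *F11R* at 0.889. *CLDN4* and *TJP1* ran opposite to each other (-0.979). Without the third library of COL1-PC3SFRP2 these were 0.967, 0.962, 0.858 and -0.807, and with the substituted library 0.930, 0.965, 0.760 and -0.864. Among 9016 genes, the pattern most like that of *CLDN1* was that of *LTA4H*, an enzyme of leukotriene synthesis (0.987), then *SLC35F2* (0.974) and *RGS2* (0.973). For *CLDN3* it was *GAPDH* (0.997), a glycolytic enzyme often used as a reference gene, followed by *YIPF3* and *LY6E*. For *CLDN7* it was *NDUFAF3* (0.995), followed by the keratin gene *KRT8* (0.994). *CLDN4* was most like *PDGFB* (0.990), *CRB3* like *STX5* (0.988), *TJP1* like the proliferation gene *MKI67* (0.981), *F11R* like *KLF12* (0.968), *OCLN* like *COX18* (0.961) and *CLDN12* like *ALDH5A1* (0.958). Without the third library the r of *TJP1* with *MKI67* was 0.826, that of *OCLN* with *COX18* 0.885 and that of *CLDN4* with *PDGFB* 0.911, and those of the other 6 leading genes were 0.956 to 0.993. These values are a description of the libraries.

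The remaining junction genes were read from 10 lists with 105 genes tested. On CCP and for COL1 in PC3, 0 of them were called by edgeR. On COL1, 31 were higher and 20 lower in PC3SFRP2, against the 18.9% and 17.7% of all genes, and the median log2 fold change was 0.11. The 31 had GC contents of 47.3 to 67.6% (median 60.3%) and the 20 of 33.3 to 49.3% (median 40.2%). After the GC correction 11 were called higher and 17 lower, against 5.54% and 9.41% of all genes, and with the substituted library 0 and 1, against 0.485% and 0.833%. Of the 31, 26 were still called without the third COL1-PC3SFRP2 library and 8 after the GC correction, which turned the sign of 5. Of the 20, all 20 and 8 were still called, and the correction turned the sign of 2. The fold changes of single genes that follow are for *SFRP2* on COL1 with all libraries, and each paragraph then gives what the GC correction left.

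Of 17 other claudin genes 9 were tested, and 2 were called higher on COL1, *CLDN14* (1.41) and *CLDN15* (1.50), which encodes a channel-forming claudin. *CLDN11* was the most abundant of them, at 15.0 CPM in CCP-PC3. Among 9 other membrane proteins *LSR*, which encodes angulin-1 of tricellular junctions, was higher (0.90), and *CXADR*, the coxsackievirus and adenovirus receptor, was lower (-1.89, adjusted p = 0.000166 from edgeR's test). *CXADR* had 17.2 CPM in COL1-PC3 and 4.64 CPM in COL1-PC3SFRP2, and on CCP 22.5 and 12.5 CPM, not called (adjusted p = 0.178 from the same test). After the GC correction none of these 4 genes was called: *CLDN14* was at 0.61, *CLDN15* at 0.38, *CXADR* at -0.66, and *LSR* turned to -0.28. Corrected with the third COL1-PC3SFRP2 library left out, *CXADR* (-1.02, edgeR adjusted p = 0.00225) and *LSR* (-0.41) were called lower. Corrected with the substituted library, *CXADR* was called lower (-1.01, edgeR adjusted p = 0.00253) and *LSR* was not called. Not called as counted, *CLDN23* (-1.95) and *MARVELD3* (-0.89) were called lower after the correction alone. As counted, *LSR* was also not called without the third COL1-PC3SFRP2 library (0.47). *CXADR* was the list gene called with the substituted library (-1.37, edgeR adjusted p = 0.0211).

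In the cytoplasmic plaque 5 of 14 genes were higher, among them the scaffold genes *TJP3* (1.49) and *CGN* (1.19), and *MAGI1* (-0.68) and *MAGI3* (-0.98) were lower. Of 15 polarity genes 5 were higher, among them *PRKCZ* (1.54) and *LLGL2* (1.56), and 4 were lower, among them *PRKCI* (-1.17) and *LIN7C* (-1.86). *PRKCZ* and *PRKCI* encode the related atypical kinases of the PAR complex, with GC contents of 60.3% and 38.7%. Of 12 adherens junction genes 4 were higher, among them *CDH3* (1.06) and *NECTIN2* (1.36), and *CTNND1* (-1.82) and *VCL* (-0.53) were lower. *CDH1*, which encodes E-cadherin, was at 124.2 to 146.7 CPM in the group means and was not called in any comparison, and *CTNNA1*, whose product alpha-catenin PC3 is known to lack, was at 0.931 to 1.89 CPM. Of 8 desmosome genes *JUP* (1.36) and *PKP3* (1.80) were higher and 4 were lower, among them *DSG2* (-1.59). Of the genes named here as higher, *PRKCZ* (0.54) and *PKP3* (0.52) were called after the GC correction and *TJP3*, *CGN*, *LLGL2*, *CDH3*, *NECTIN2* and *JUP* were not, at 0.19 to 0.49. Of those lower, *MAGI1*, *MAGI3*, *LIN7C*, *CTNND1*, *VCL* and *DSG2* were called, at -1.75 to -0.52, and *PRKCI* was not (-0.22). *TJP3* was also not called without the third COL1-PC3SFRP2 library (0.55). Not called as counted, *AMOTL2* (-1.04) and *YBX3* (-0.77) were called lower after the GC correction and *CTNNB1* (0.70) higher.

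Among 11 activators of the epithelial programme 4 were higher on COL1, *OVOL1* (1.80), *ELF3* (1.51), *ESRP2* (0.87) and *GRHL2* (0.74), and *ESRP1* (-0.76), *EHF* (-0.57) and *KLF5* (-0.55) were lower. After the GC correction *OVOL1* (0.91), *ELF3* (1.03) and *GRHL2* (0.55) were called, and *ESRP2* (-0.014), *ESRP1* (-0.18), *EHF* (0.34) and *KLF5* (-0.28) were not. *ESRP2* was also not called without the third COL1-PC3SFRP2 library (0.34). Of 9 repressors *TCF3* was called higher (0.59), but lower after the GC correction (-0.58, edgeR adjusted p = 0.00323) and not called without the third library (0.27). *SNAI1*, *SNAI2*, *ZEB1* and *TWIST1* were not called in any comparison with all libraries as counted, and *ZEB1* had 193 counts in all. On COL1 the GC correction left *SNAI2* called higher (0.65, edgeR adjusted p = 0.0213) and *TWIST1* called lower (-1.33, edgeR adjusted p = 0.0009). *SNAI1* and *ZEB1* were not called after it. *TWIST1* was also called lower without the third COL1-PC3SFRP2 library (-0.91, edgeR adjusted p = 0.00245). With the substituted library *SNAI2* (0.42) and *TWIST1* (-0.53) were not called. With this library and the GC correction *SNAI2* was called higher (0.59, edgeR adjusted p = 0.0316) and *TWIST1* was not called (-0.81). Corrected with the third COL1-PC3SFRP2 library left out, *SNAI2* was called higher (0.82) and *TWIST1* lower (-1.55). Among 8 interactors and proteases of claudins, the protease genes *ST14* (1.52) and *PRSS8* (1.74) and their inhibitors *SPINT1* (1.26) and *SPINT2* (1.55) were higher, with a median of 0.67 over the list. *TSPAN8* was called lower, with 22 counts in COL1-PC3 and 0 in COL1-PC3SFRP2, at least 5.86-fold lower when 3 counts over the group are taken as the floor. *EPCAM*, which encodes an adhesion protein that stabilises *CLDN7* protein, was not called in any comparison with all libraries as counted. After the GC correction it was called higher on COL1 (0.41, edgeR adjusted p = 0.0271). Of 10 contractility genes 3 were higher, among them *ARHGEF2* (1.40), and 3 were lower, among them *ROCK1* (-1.55). After the GC correction *SPINT2* (0.89), *TSPAN8* and *ROCK1* (-0.91) were called, and *ST14* (0.34), *PRSS8* (0.52), *SPINT1* (0.22) and *ARHGEF2* (0.54) were not. *PRSS8* was also not called without the third COL1-PC3SFRP2 library (0.56), and *TSPAN8* was not called with the substituted library.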

How the data were processed

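RNA of 12 samples of PC3 cells (100000 cells seeded per flask, 5 days) was made into libraries with a Lexogen SENSE mRNA-Seq kit and read as 50-base reads. Alignment was with STAR to GRCh38, and raw counts for each gene were deposited by the authors; the counting tool and strand setting are not given in the sources used here. Of 80 columns in 5 deposited sheets, 45 were not used. The members and gene lists were chosen with earlier results of these data known.

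Genes with 10 or more counts in total were scaled by TMM and tested with edgeR 4.0.16 (R 4.3.3), 4 groups in 1 quasi-likelihood fit with Benjamini-Hochberg adjustment, called at an adjusted p under 0.05; the script was tested on simulated data. DESeq2 1.42.0 was an alternative to edgeR, as were other scaling, filters, a replicate block, 2-group fits, a GC and length correction, leaving out each library, the substituted library and a second alignment of 11 libraries. The GC correction with the substituted library and a robust legacy edgeR fit were chosen after seeing the data. All 9 members were named, with up to 4 called genes per direction of each list and the 3 genes most like each member. Counts limit the precision: *CRB3* had 28 to 176 per library, *TJP1* 489 to 2518.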

Additional observations from a re-analysis of the deposited data

Results flagged for a closer look

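The effect of *SFRP2* differed between COL1 and CCP for *CLDN4*, *CLDN7* and *CRB3*, by the interaction in edgeR's fit. The log2 difference was 2.28 for *CLDN4* (adjusted p = 0.0472), 1.16 for *CLDN7* (adjusted p = 0.0414) and 2.11 for *CRB3* (adjusted p = 0.045), all from edgeR's quasi-likelihood test. The transcripts of the 3 genes have GC contents of 56.0 to 62.1%, and after the GC correction the differences were 1.10, 0.47 and 0.99 and were not called. With the substituted library they were 0.71, 0.53 and 1.20, also not called.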

How the results depend on the processing

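The replicate numbers did not pair the libraries: deviations of same-numbered libraries from their group means correlated at -0.61 to 0.61. With a replicate block the members called for *SFRP2* on CCP, *SFRP2* on COL1 and COL1 in PC3SFRP2 did not change by over 1.5 times, and those of the interaction went from 3 to 0.

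On COL1 the 6 genes called for *SFRP2* became 2 after the GC correction, 2 with this correction and the third COL1-PC3SFRP2 library left out, 1 with the substituted library, 1 with both, and 3 when only the 2 groups were fitted. The 8 called for COL1 in PC3SFRP2 became 3, 3, 0, 0 and 5 in the same order. The first 3 and the second 3 were not the same genes: *CLDN3* was in the first alone and *F11R* in the second alone. Over all genes the calls of these fits fell from 7455 to 3045, 3585, 269, 1856 and 3349 and from 7980 to 2866, 2933, 13, 468 and 5380. The 3 interactions became 0 in each of the first 4, and 6 by DESeq2. Leaving out 1 library gave 0 to 1 genes for *SFRP2* on CCP, and 0 to 5 interactions, with 0 without any single library of the CCP groups or COL1-PC3 library 2 or 3, and 5 without the second of COL1-PC3SFRP2. The cause was not tested.

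Directions reversed in 49 of the fold changes of single genes, each at an adjusted p over 0.05 in the fit that reversed it. In genes called with all libraries this was seen in fits with the GC correction. For *SFRP2* on COL1, the correction with the third library left out gave *CLDN4* -0.088. The correction with the substituted library gave *CLDN3* -0.20, *CLDN4* -0.15, *CLDN7* -0.054 and *CRB3* -0.0033. For COL1 in PC3SFRP2, the correction alone gave *CLDN1* 0.15, *CLDN12* 0.98 and *OCLN* 0.31. The correction with the third library left out gave *CLDN4* -0.16, *CLDN12* 0.11 and *OCLN* 0.24. Combined with the substituted library, it gave *CLDN4* -0.22 and *OCLN* 0.11.

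In genes not called, the GC correction alone turned *CLDN12* to 0.93 and *OCLN* to 0.42 for *SFRP2* on COL1, *CLDN1* to 0.011, *CLDN12* to 0.053 and *F11R* to 0.043 for COL1 in PC3, and the interactions of *CLDN1*, *CLDN12* and *OCLN* to 0.14, 0.93 and 0.49. Without the third library it gave *CLDN12* 0.078 and *OCLN* 0.39 for *SFRP2* on COL1, *CLDN12* 0.031 and *F11R* 0.032 for COL1 in PC3, *TJP1* 0.0070 for COL1 in PC3SFRP2, and interactions of 0.082 for *CLDN12* and 0.46 for *OCLN*. With the substituted library it gave *OCLN* 0.24 for *SFRP2* on COL1, *CLDN1* 0.0055, *CLDN12* 0.045 and *F11R* 0.043 for COL1 in PC3, *TJP1* 0.072 for COL1 in PC3SFRP2, and interactions of -0.012 for *CLDN3* and 0.30 for *OCLN*. The interaction of *OCLN* was 0.033 with the substituted library alone. With the second alignment *OCLN* was 0.0064 on CCP and 0.12 on COL1, with an interaction of 0.11, and with no filter *CLDN12* was 0.0029 and *OCLN* 0.0015 on CCP. Over the fits that left out 1 library, *CLDN12* ran from -0.11 to 0.072 and *OCLN* from -0.092 to 0.038 on CCP, and *TJP1* from -0.028 to 0.13 and *CRB3* from -0.11 to 0.73 for COL1 in PC3. Of all fold changes of single genes in the alternatives, 913 kept their direction and their side of the threshold, 92 lost the call and 17 gained it.

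The counts of all genes called on CCP were 22 by edgeR, 92 by DESeq2, 61 when corrected for GC and 65 with the substituted library; on COL1 they were 7455, 7728, 3045 and 269. With only the 2 groups fitted 789 were called on CCP and 3349 on COL1, and with the second alignment 393 and 7006. The interaction was called in 1766 genes by edgeR, 3837 by DESeq2, 331 after the GC correction, 1173 with this correction and the third library left out, 1 with it and the substituted library, 0 with the substituted library alone, 10 with the replicate block, and 3 to 5649 over the fits that left out 1 library. On CCP, leaving out 1 library gave 5 to 372, the highest without the third of COL1-PC3SFRP2, and the GC correction gave 720 with that library left out and 261 with it substituted. COL1 in PC3 went from 0 genes to 11 with 2 groups, 30 with the second alignment, 26 without the third COL1-PC3SFRP2 library and 154 when the GC correction was added to that, none of the 9 among them.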
